A study of Mus musculus with 6 samples.

Results

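The nuclear receptor superfamily is the set of genes for transcription factors that bind small fat-soluble ligands, or descend from such factors. A list of 46 mouse genes was taken, and a member was kept where an array probe set carried its symbol and no other. A gene with several such probe sets was represented by the brightest, judged by its mean across the 6 arrays. This gave 41 nuclear receptors among 18820 tested genes. Of the other 5 members, Nr1i3, Thra and Nr1d1 lay only on probe sets shared with another gene, and Nr1h2 and Nr2e3 had no probe set of their own in the annotation used. None of these 5 is given a value.

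RNA came from bone marrow-derived macrophages of male mice aged 12 to 16 weeks, with 1 Affymetrix array per sample. The WT group (3 arrays) was wild type, and the GPS2KO group (3 arrays) carried a knockout of Gps2, given in the labels as a macrophage knockout (MKO) with neither the deleted exons nor a Cre driver named. In both groups marrow cells grew for 7 days in medium with 30% L929-conditioned medium, the supernatant of a fibroblast line that secretes macrophage growth factor, and received no stimulus. Values were log2 intensities processed by the authors with RMA, a method that removes background, equalises the arrays and summarises the probes of each probe set. Nothing in the labels says that the arrays of a group came from different animals, and the p-values therefore measure only how these samples vary, which may be technical variation.

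A typical nuclear receptor has a DNA-binding domain with zinc fingers and a ligand-binding domain that swaps corepressors for coactivators when a ligand enters. Many members pair with a retinoid X receptor and sit on DNA without ligand. There they hold a corepressor complex of NCoR or SMRT with HDAC3, TBL1 and GPS2. The gene of GPS2 was knocked out here, and the arrays do not measure its protein. In macrophages, members of the family are known for control of cholesterol efflux (the liver X receptors, LXR), lipid uptake (PPAR gamma), steroid responses (the glucocorticoid receptor) and the daily clock (REV-ERB and ROR).

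Array medians ran from 5.57 to 5.6, and Pearson correlations across genes were 0.9989 to 0.9991 within groups and 0.9977 to 0.9981 between groups. The macrophage markers Csf1r, Adgre1 and Lyz2 had WT means of 12.74, 12.53 and 13.38, so the labelled cell type was borne out by its defining genes. Gps2, the label check, was at 10.943, 10.931 and 11.002 on the WT arrays and at 10.289, 10.164 and 10.187 on the GPS2KO arrays, 59.7% of the WT signal. The labels do not name the deleted exons, and the source of the remaining Gps2 signal was not tested. Stromal markers were also present, with a WT mean of 11.97 for the collagen gene Col1a1. In bulk RNA, fewer cells of a type and less RNA per cell cannot be told apart.

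Of the 41 nuclear receptors, 3 fell in GPS2KO macrophages, 0 rose and 38 did not pass the test. The test was limma, with Benjamini-Hochberg adjustment over all 18820 genes and a threshold of 0.05. The falls were those of Nr1h3, which encodes LXR alpha, the oxysterol receptor that switches on cholesterol efflux; of Pparg, which encodes the fatty acid receptor PPAR gamma; and of Nr0b2, which encodes SHP, a receptor without a DNA-binding domain that represses other nuclear receptors. Called members made up 7.32% of the family, against 6.72% of all tested genes, where rises were called for 2.9% and falls for 3.83%, so the family's share lay near the background. At an unadjusted p under 0.05 there were 10 of the 41 members (7 lower and 3 higher in GPS2KO), against 3906 of all 18820 genes (20.8%). For 9 members the ranges of the groups were separate, or 22%, against 27.1% of all genes.

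The RefSeq promoters of the 3 receptors that fell are shown first, because these members moved in 1 direction and a reader may want to see which receptor elements lie at their starts. Each is the 250 bases before an annotated start site on build GRCm38.p6, written 5′ to 3′ on the gene's own strand. Capitals mark matches, on either strand, to 6 motifs: the nuclear receptor half-site AGGTCA, the E-box CACGTG, the ETS-type core GAGGAA, the TATA box TATAAA, the GC box GGGCGG and the core of the interferon-stimulated response element. RefSeq gives 2 start sites for Nr1h3 and 3 for Pparg, and 1 window is printed for each gene.
Nr1h3, chr2:91195117-91195366, minus strand: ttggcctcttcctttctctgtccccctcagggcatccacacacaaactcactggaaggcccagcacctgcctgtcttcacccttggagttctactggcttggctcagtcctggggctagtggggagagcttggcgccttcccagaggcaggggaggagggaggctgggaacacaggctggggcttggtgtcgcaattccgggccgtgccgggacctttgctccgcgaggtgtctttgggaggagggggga
Nr0b2, chr4:133553126-133553375, plus strand: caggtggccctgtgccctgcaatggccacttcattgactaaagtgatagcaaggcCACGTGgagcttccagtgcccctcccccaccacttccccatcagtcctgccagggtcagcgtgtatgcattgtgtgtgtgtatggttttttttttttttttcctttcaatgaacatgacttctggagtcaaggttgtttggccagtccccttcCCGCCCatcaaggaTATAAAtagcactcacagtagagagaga
Pparg, chr6:115362099-115362348, plus strand: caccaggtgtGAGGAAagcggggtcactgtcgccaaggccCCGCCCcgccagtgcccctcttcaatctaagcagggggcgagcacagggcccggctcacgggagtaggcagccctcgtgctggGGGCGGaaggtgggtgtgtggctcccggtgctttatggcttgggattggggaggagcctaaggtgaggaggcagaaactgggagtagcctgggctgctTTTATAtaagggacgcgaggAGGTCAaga

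Neither Nr1h3 window held any of the 6 motifs. The Nr0b2 window held an E-box at -195, a GC box at -42 and a TATA box at -28, counted from the start site to the first base of the match. In the printed Pparg window the receptor half-site began at -9 and the TATA box at -29, with an ETS-type core at -240 and GC boxes at -210 and -127. A further Pparg window, chr6:115360894-115361143, had a half-site at -28 and a GC box at -177, and the third, chr6:115421816-115422065, had no match. Among all 32851 RefSeq windows of this length, 14% held the half-site, 6.02% the E-box, 23.3% the ETS-type core, 12.4% the TATA box, 32.7% the GC box and 2.98% the interferon-stimulated element. Of the 41 tested receptors 38 had windows, 59 in all, of which 18.6% held the half-site, 6.78% the E-box, 15.3% the ETS-type core, 13.6% the TATA box, 47.5% the GC box and 1.69% the interferon-stimulated element. A match is a description of letters and not a site of binding.

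**Figure D1:**
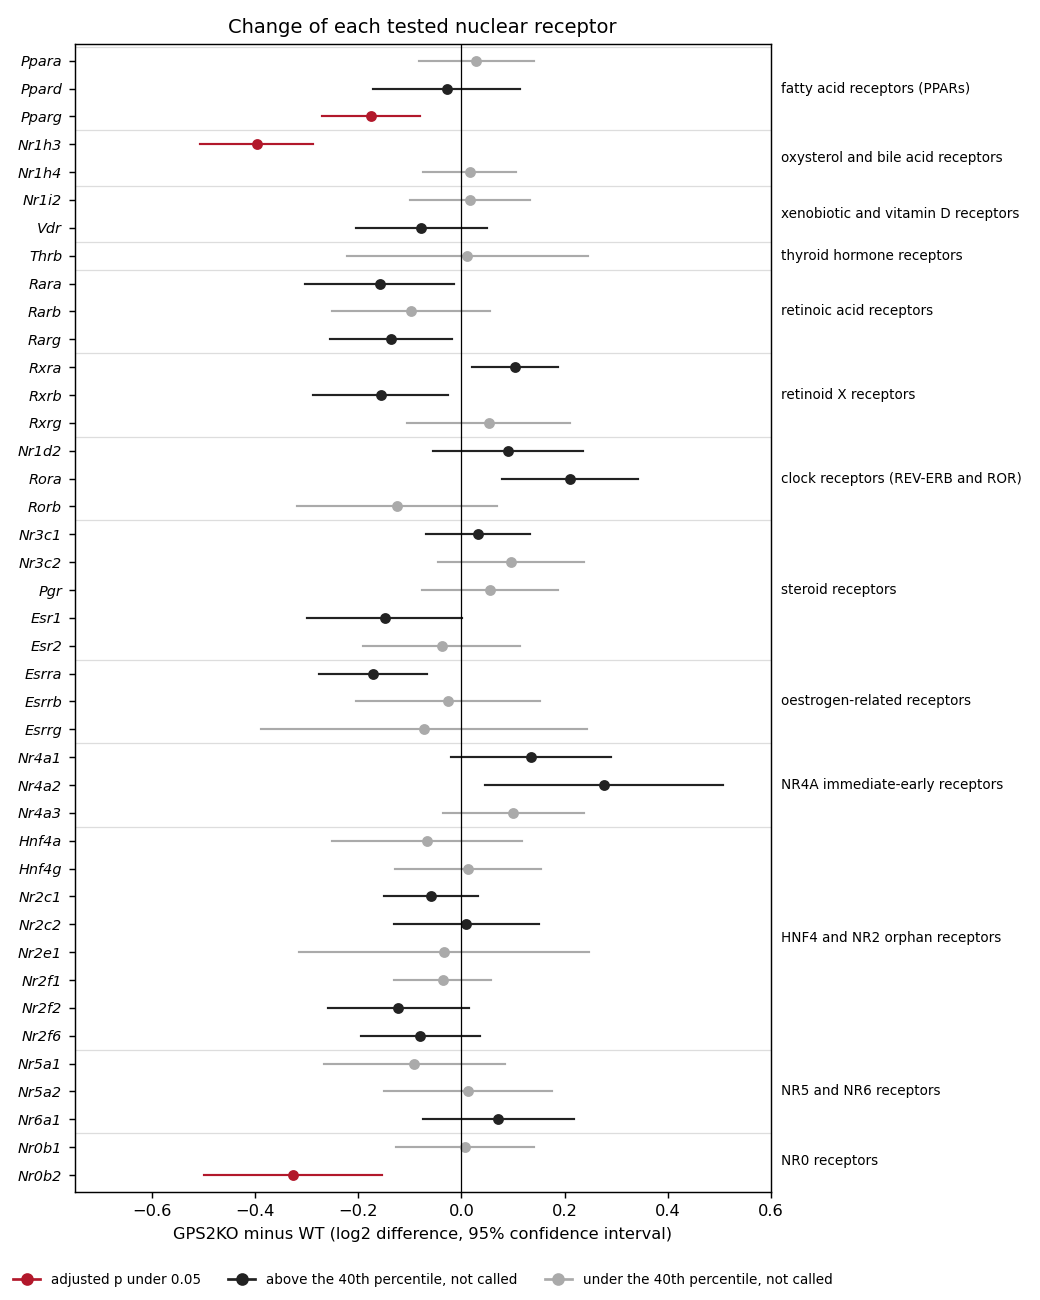
Difference between the GPS2KO and WT means for each of the 41 tested nuclear receptors, in log2 units, with limma's 95% confidence interval, grouped by receptor class. Nr1h3, Pparg and Nr0b2, in red, lie to the left of 0 with adjusted p under 0.05, and the grey members, whose mean lies under the 40th percentile of gene means, all lie within 0.13 of 0.

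Signal strength split the family evenly. The 40th percentile of gene means, 5.49 on the log2 scale, was used as a limit under which a signal is dim and background compresses differences. Of the 41 receptors 21 lay above it: Ppard, Pparg, Nr1h3, Vdr, Rara, Rarg, Rxra, Rxrb, Nr1d2, Rora, Nr3c1, Esr1, Esrra, Nr4a1, Nr4a2, Nr2c1, Nr2c2, Nr2f2, Nr2f6, Nr6a1 and Nr0b2. The 20 under it were Ppara, Nr1h4, Nr1i2, Thrb, Rarb, Rxrg, Rorb, Nr3c2, Pgr, Esr2, Esrrb, Esrrg, Nr4a3, Hnf4a, Hnf4g, Nr2e1, Nr2f1, Nr5a1, Nr5a2 and Nr0b1. Just above the limit was Nr0b2, at 5.72, and just under it was Hnf4a, a liver and gut receptor, at 5.38.

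All 3 calls came from the bright 21 (14.3%), where 10.6% of all genes above the limit were called and 6.06% were called as falls. An unadjusted limma p under 0.05 was found for 10 of the 21, against 28.7% of all genes above the limit. All 9 receptors without overlap between groups were bright too, 42.9% of the 21 against 37.3% of all genes above the limit. These were Pparg, Nr1h3, Rarg, Esr1, Esrra, Nr2c1 and Nr0b2, lower in GPS2KO, and Rxra and Rora, higher in GPS2KO. The median absolute difference was 0.134 for the bright receptors, against 0.07 for all genes above the limit, and their median spread between replicates was also wider (pooled SD 0.076 against 0.055). Among the bright receptors, that SD ran from 0.015 for Rxra to 0.156 for Nr4a2. The 20 dim receptors had a median absolute difference of 0.038, against 0.053 for all dim genes. At the adjusted threshold of 0.05 they had 0 calls, where 0.903% of all dim genes were called. At an unadjusted limma p under 0.05 there were also 0, against 666 of the 7528 dim genes.

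**Figure D2:**
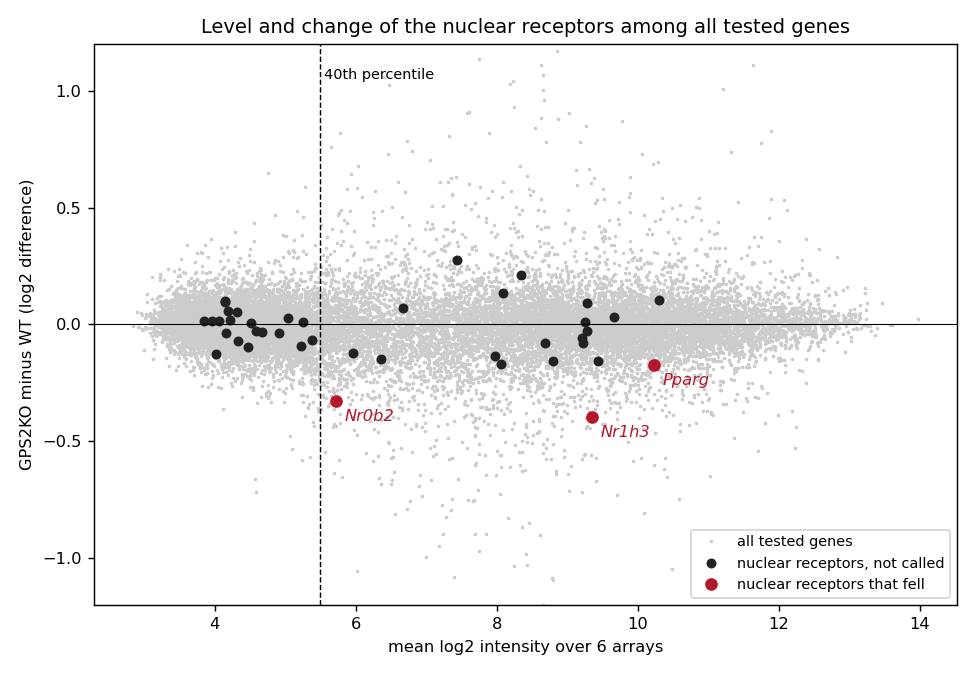
Mean log2 intensity over the 6 arrays (horizontal) and GPS2KO minus WT log2 difference (vertical), with all tested genes in grey, nuclear receptors in black and the 3 that fell in red; 16 genes with differences beyond 1.2 lie outside the plot. The receptors fall on both sides of the dashed line at 5.49, and Nr0b2 sits next to it.

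The oxysterol and bile acid receptors had the largest difference of the family. Nr1h3 was at 9.497, 9.558 and 9.569 on the WT arrays and at 9.221, 9.097 and 9.115 on the GPS2KO arrays. Every WT array lay above every GPS2KO array. Mean values were 9.54 ± 0.04 and 9.14 ± 0.07 (SD, n = 3 each), a fall of 1.32-fold (log2 difference -0.40, SE 0.0474, 95% confidence interval -0.51 to -0.29; adjusted p = 0.00299, limma). Nr1h3 was the member whose call held under each of the 14 alternative settings, with adjusted p up to 0.0185. Nr1h4, which encodes the bile acid receptor FXR of liver and gut, was dim, at 3.95 ± 0.02 and 3.97 ± 0.04.

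The nearest tested protein-coding genes in the RefSeq order around Nr1h3 were Madd, a regulator of Rab GTPases, at -0.13 (adjusted p = 0.176), and Pacsin3, at -0.05 (adjusted p = 0.82). Neither neighbour passed the test. Around Nr0b2 these were Nudc (-0.12, adjusted p = 0.117) and Gpatch3 (-0.02, adjusted p = 0.894). Around Pparg they were Mkrn2 (0.03, adjusted p = 0.761) and Timp4, an inhibitor of matrix proteases. Timp4 fell by 0.20 (adjusted p = 0.0362) at a dim mean of 4.51. These neighbours were chosen after the members' values were seen.

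Of the 3 fatty acid receptors, Pparg fell, Ppard did not pass and Ppara was dim. Pparg was at 10.295, 10.271 and 10.367 on the WT arrays and at 10.151, 10.123 and 10.132 on the GPS2KO arrays. The WT arrays all lay above the GPS2KO arrays. Mean values were 10.31 ± 0.05 and 10.14 ± 0.01 (SD, n = 3 each), a 1.13-fold fall (log2 difference -0.18, SE 0.0408; limma adjusted p = 0.0461). The call was near the threshold. It ended without any 1 of the 6 arrays, at adjusted p from 0.0684 to 0.141, after quantile normalization (0.0563), after median centring over tested genes (0.0888) and with all probe sets in the adjustment (0.107).

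Ppard, which encodes the widely expressed PPAR delta, was at 9.269, 9.231 and 9.372 in WT and at 9.258, 9.168 and 9.360 in GPS2KO. The groups overlapped, and the interval of the difference ran from -0.17 to 0.11. The per-array log2 difference of Pparg over Ppard was 1.02 ± 0.02 in WT and 0.87 ± 0.09 in GPS2KO, lower by 0.15 without overlap (exact 2-sided permutation p = 0.1, the smallest that 20 arrangements allow). Ppara, the PPAR of liver fat burning, was at 5.02 ± 0.05 and 5.05 ± 0.06.

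Among the receptors without a DNA-binding domain, Nr0b2 fell. It was at 5.928, 5.807 and 5.904 on the WT arrays and at 5.715, 5.450 and 5.492 on the GPS2KO arrays. All WT arrays were higher, and GPS2KO replicates 2 and 3 lay next to the dim limit of 5.49. Mean values were 5.88 ± 0.06 and 5.55 ± 0.14 (SD, n = 3 each), to 79.7% of the WT signal (log2 difference -0.33, SE 0.074; limma adjusted p = 0.0421). The call held without GPS2KO replicate 1 (adjusted p = 0.0114) and ended without any other array, at adjusted p from 0.0672 to 0.129. It also ended after quantile normalization (0.0537) and with all probe sets in the adjustment (0.122). Nr0b1, which encodes DAX1, a regulator of steroid-making tissues, was dim (4.51 ± 0.10 and 4.52 ± 0.04).

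**Figure D3:**
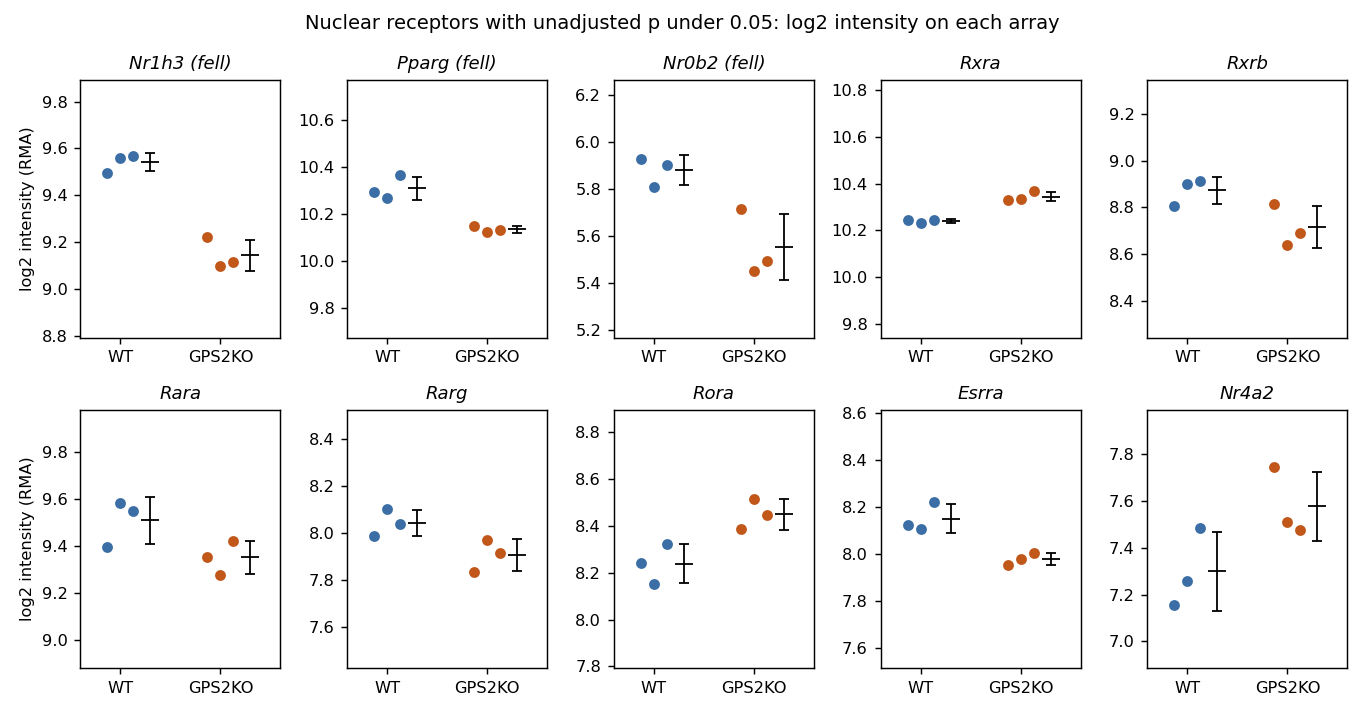
Log2 intensity on each array for the 10 nuclear receptors with an unadjusted p under 0.05, with WT in blue and GPS2KO in orange; the black bar gives the group mean and its SD (n = 3), and every panel spans the same log2 range. The groups stand apart for Nr1h3, Pparg, Nr0b2, Rxra, Rarg, Rora and Esrra and overlap for Rxrb, Rara and Nr4a2.

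The retinoid X receptors are the shared partners of LXR, PPAR, retinoic acid and vitamin D receptors. None of the 3 passed the limma test, while 2 had an unadjusted p under 0.05, in opposite directions. Rxra was at 10.245, 10.232 and 10.246 in WT and at 10.330, 10.336 and 10.366 in GPS2KO, with no overlap, a difference of 0.10 (SE 0.0357, adjusted p = 0.149). It passed with a variance trend (adjusted p = 0.0433). Rxrb was at 8.806, 8.900 and 8.913 in WT and at 8.816, 8.642 and 8.692 in GPS2KO, a difference of -0.16 (SE 0.0566, adjusted p = 0.166). One GPS2KO array of Rxrb lay above the lowest WT array. The per-array difference of Rxra over Rxrb was 1.37 ± 0.06 in WT and 1.63 ± 0.10 in GPS2KO, higher by 0.26 without overlap (exact 2-sided permutation p = 0.1, the smallest possible). Rxrg, the RXR of muscle and brain, was dim, at 4.28 ± 0.08 and 4.34 ± 0.11.

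The retinoic acid receptors, which bind the vitamin A acid, were lower in GPS2KO for all 3 genes without passing the test. Rara was at 9.395, 9.582 and 9.551 in WT and at 9.355, 9.277 and 9.421 in GPS2KO, where the highest GPS2KO array exceeded the lowest WT array. Its difference was -0.16 (SE 0.0621, adjusted p = 0.201). Rarg was at 7.990, 8.102 and 8.041 in WT and at 7.834, 7.973 and 7.916 in GPS2KO. These arrays did not overlap, and the difference was -0.14 (SE 0.0511, adjusted p = 0.18). Rarb was dim, at 4.52 ± 0.13 and 4.42 ± 0.04.

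Vdr, the vitamin D receptor, was at 9.314, 9.219 and 9.246 in WT and at 9.115, 9.149 and 9.281 in GPS2KO. The groups overlapped, and the interval of the difference ran from -0.21 to 0.05. Nr1i2, the drug-sensing receptor PXR of liver, was dim (4.21 ± 0.08 and 4.23 ± 0.02). Thrb, a thyroid hormone receptor, was dim as well, at 5.25 ± 0.14 and 5.26 ± 0.17.

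The clock receptors compete for 1 DNA element, where ROR proteins activate and REV-ERB proteins repress. Rora was at 8.243, 8.152 and 8.321 in WT and at 8.386, 8.516 and 8.444 in GPS2KO. Every GPS2KO array was higher, by 0.21 between the means (SE 0.0566, 95% confidence interval 0.08 to 0.34), with limma adjusted p = 0.0729. Rora passed with a variance trend (adjusted p = 0.0295) and without dim genes (0.0357). Nr1d2, which encodes REV-ERB beta, was at 9.219, 9.125 and 9.342 in WT and at 9.371, 9.331 and 9.254 in GPS2KO, a difference of 0.09 with overlap (adjusted p = 0.479). A further probe set of Nr1d2, dim at a mean of 4.23, differed by 0.18. Rorb was dim, at 4.09 ± 0.15 and 3.96 ± 0.10.

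Of the 5 steroid receptors, Nr3c1 and Esr1 were bright and none passed. Nr3c1, which encodes the glucocorticoid receptor, was at 9.665, 9.667 and 9.619 in WT and at 9.648, 9.748 and 9.651 in GPS2KO. The groups overlapped, and the interval of the difference, -0.07 to 0.13, left out changes beyond 1.10-fold in either direction. Esr1, the oestrogen receptor alpha gene, was at 6.353, 6.559 and 6.374 in WT and at 6.341, 6.284 and 6.214 in GPS2KO. The WT arrays were all higher, and the difference was -0.15 (SE 0.0645, adjusted p = 0.246). Nr3c2 (mineralocorticoid receptor), Pgr (progesterone receptor) and Esr2 (oestrogen receptor beta) were dim, with differences of 0.10, 0.06 and -0.04.

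Esrra encodes an orphan receptor that drives mitochondrial genes. It was at 8.122, 8.105 and 8.221 in WT and at 7.953, 7.976 and 8.004 in GPS2KO, with every WT array higher. The difference was -0.17 (SE 0.0447, 95% confidence interval -0.28 to -0.07; limma adjusted p = 0.066). It passed without dim genes (adjusted p = 0.0276) and with arrays centred on the median of all probe sets (0.0353). The related Esrrb and Esrrg were dim, with differences of -0.03 and -0.07.

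The NR4A receptors are immediate-early genes, switched on within a short time of a stimulus. All 3 had higher means in GPS2KO, and none passed. Nr4a2, which encodes NURR1, was at 7.157, 7.256 and 7.483 in WT and at 7.743, 7.508 and 7.477 in GPS2KO. The lowest GPS2KO array lay under the highest WT array, and the difference was 0.28 (SE 0.099, adjusted p = 0.163). Nr4a1, which encodes NUR77, was at 7.946, 7.934 and 8.156 in WT and at 8.171, 8.183 and 8.085 in GPS2KO, a difference of 0.13 (adjusted p = 0.316). Nr4a3 was dim, at 4.10 ± 0.06 and 4.20 ± 0.10.

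None of the 8 tested HNF4 and NR2 orphan receptors passed. Nr2f6, which encodes EAR2, a repressor in lymphocytes, was at 8.72 ± 0.06 and 8.65 ± 0.06. Nr2c1 and Nr2c2, the testicular receptors, were at 9.24 ± 0.03 and 9.18 ± 0.03, and at 9.24 ± 0.10 and 9.25 ± 0.06. Nr2f2, which encodes COUP-TFII, a receptor of stroma and veins, was at 6.02 ± 0.04 and 5.90 ± 0.11. Hnf4a, Hnf4g, Nr2e1 and Nr2f1 were dim, with differences from -0.07 for Hnf4a to 0.01 for Hnf4g.

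The last class holds Nr6a1, the germ cell nuclear factor, which was at 6.63 ± 0.12 and 6.70 ± 0.03 (difference 0.07, adjusted p = 0.584). Nr5a1, the SF-1 gene of adrenal and gonad, and Nr5a2, the LRH-1 gene of liver and gut, were dim, with differences of -0.09 and 0.01.

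Genes that work with nuclear receptors were examined in 8 lists. The lists were chosen with earlier results of these data known. Their called shares therefore describe the chosen genes and are no test of a list against the background. Every call of these lists that ended without some arrays also ended with all probe sets in the adjustment. Of 14 tested corepressor subunits and corepressors, 2 fell, 1 rose and 11 did not pass, with a median of -0.04. That is 21.4% called in a list with all 14 genes above the dim limit, where 10.6% of all genes were called. The share includes Gps2, the knocked-out gene, so part of it was set by the design. Besides Gps2 itself, Hdac7, a class II deacetylase, fell from 8.43 ± 0.08 to 8.20 ± 0.03 (adjusted p = 0.0353). Tle3, a Groucho-type corepressor that also takes part in fat cell formation, rose 1.29-fold, from 10.31 ± 0.03 to 10.68 ± 0.03 (adjusted p = 0.0019). Hdac3, the enzyme of the GPS2 complex, differed by -0.08 (adjusted p = 0.298) and was named after its value was seen. The Hdac7 call held when WT replicate 1 was left out and ended when any other array was, with adjusted p reaching 0.111, and after median centring over tested genes.

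Of 20 coactivators, 1 rose, 1 fell and 18 did not pass, with a median of -0.0043 where all tested genes had -0.0077. The called share of 10% lay near the background of 10.6% above the dim limit, where 19 of the 20 lay. Ncoa4, named as a receptor coactivator and also the cargo receptor that delivers ferritin for breakdown, rose from 10.99 ± 0.04 to 11.26 ± 0.01 (1.21-fold, limma adjusted p = 0.00606). Kat2b, an acetyltransferase also called PCAF, fell from 8.31 ± 0.06 to 8.08 ± 0.06 (adjusted p = 0.0358). The Kat2b call ended without WT replicate 2 or 3 or GPS2KO replicate 2 or 3, at adjusted p up to 0.122.

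Genes for making, breaking down and carrying receptor ligands had 6 calls among 29 tested, 4 rises and 2 falls, which is 20.7% against the 6.72% of all genes, with a median of 0.0038. Ch25h, the enzyme that makes an oxysterol ligand of LXR, was at 11.400, 11.333 and 11.321 in WT and at 10.732, 10.637 and 10.734 in GPS2KO. It fell 1.57-fold with no overlap (limma adjusted p = 0.000323). Cyp27a1, which makes another oxysterol and was named after its value was seen, differed by -0.08 (adjusted p = 0.417).

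Enzymes of retinoic acid synthesis moved in both directions. Aldh1a2 rose from 7.04 ± 0.06 to 7.42 ± 0.08 (1.30-fold, limma adjusted p = 0.007), and Aldh1a3, which carries out the same oxidation, fell from 9.68 ± 0.03 to 9.41 ± 0.06 (1.21-fold, adjusted p = 0.0116). Dhrs9, a retinol dehydrogenase, rose from 9.26 ± 0.07 to 9.53 ± 0.07 (adjusted p = 0.0263). That last call ended without WT replicate 1 or 2 or GPS2KO replicate 1 or 2, at adjusted p up to 0.097. Aldh1a3 and Dhrs9 were named after their values were seen.

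The fatty acid carriers Fabp4 and Fabp5, which bring ligands to PPARs, rose 2.25-fold and 1.45-fold (limma adjusted p = 0.000108 and 0.000479). Fabp4 is also a PPAR gamma target. It was at 8.214, 8.234 and 8.375 in WT and at 9.449, 9.382 and 9.500 in GPS2KO, while the Pparg arrays of GPS2KO lay under those of WT.

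**Figure D4:**
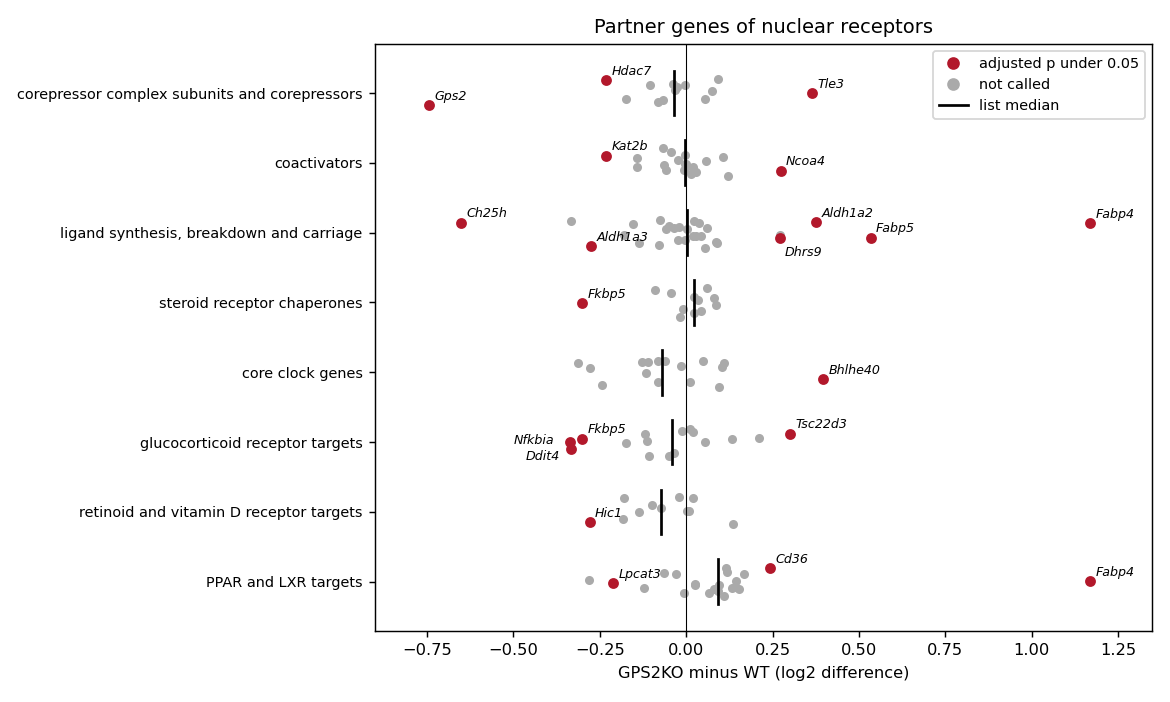
GPS2KO minus WT log2 difference of each tested member of the 8 partner lists, 1 point per gene, with genes of adjusted p under 0.05 in red and named and the list median as a black bar; the vertical position within a list carries no value. The largest differences are those of Fabp4 (1.17), Gps2 (-0.75) and Ch25h (-0.65).

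Receptor targets were mixed. Of 22 tested PPAR and LXR targets, 2 rose, 1 fell and 19 did not pass, which is 13.6% called against 6.72% of all genes and 10.6% of those above the dim limit, where 20 of the 22 lay. Higher means in GPS2KO were found for 16 of the 22, with a median of 0.09, and for 8738 of all 18820 genes. Fabp4 was the larger rise, Cd36, a scavenger receptor for lipids, rose from 12.20 ± 0.03 to 12.45 ± 0.03 (1.18-fold, limma adjusted p = 0.00991), and Lpcat3, a phospholipid-remodelling enzyme under LXR control, fell from 11.09 ± 0.06 to 10.88 ± 0.02 (adjusted p = 0.0275). The call of Lpcat3 held when WT replicate 3 was left out and ended for each other array (adjusted p reaching 0.101) and after median centring over tested genes. The cholesterol exporters Abca1 and Abcg1, well known LXR targets named after their values were seen, differed by 0.15 and 0.14 with adjusted p = 0.376 and 0.396.

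Of 16 glucocorticoid receptor targets, 3 fell, 1 rose and 12 did not pass, and the median was -0.04. All 16 lay above the dim limit, and 25% were called against 10.6% of all genes there. Nfkbia, the NF-kappaB inhibitor, fell from 10.94 ± 0.03 to 10.60 ± 0.03 (1.26-fold, limma adjusted p = 0.00252). Ddit4, a brake on mTOR signalling, fell from 8.36 ± 0.03 to 8.03 ± 0.11 (adjusted p = 0.0168), and Fkbp5, a chaperone of the glucocorticoid receptor, from 9.29 ± 0.09 to 8.99 ± 0.03 (adjusted p = 0.0132). Tsc22d3, which encodes the anti-inflammatory GILZ, moved the other way, from 8.05 ± 0.12 to 8.35 ± 0.02 (adjusted p = 0.0295). Genes of this list thus rose and fell beside an Nr3c1 signal whose groups overlapped. Control of these genes by the receptor was not tested. The Ddit4 call ended without any WT array or GPS2KO replicate 2, that of Fkbp5 without GPS2KO replicate 2, and that of Tsc22d3 without WT replicate 1 or 2 or any GPS2KO array, at adjusted p up to 0.066, 0.0563 and 0.0954.

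Fkbp5 was also the only call among the 12 tested steroid receptor chaperones, a group that includes the HSP90 machinery, whose median was 0.02 and of which 8.33% were called. Of 16 core clock genes, Bhlhe40, a repressor of the clock loop that is also induced in activated cells, rose from 9.29 ± 0.04 to 9.68 ± 0.06 (1.32-fold, limma adjusted p = 0.00265), and 15 did not pass (6.25% called, median -0.07). Of 11 retinoid and vitamin D targets, Hic1, a transcriptional repressor induced by retinoic acid, fell from 7.00 ± 0.09 to 6.72 ± 0.08 (adjusted p = 0.0361), and 10 did not pass (9.09% called, median -0.07). These 3 shares stood beside 6.72% of all genes and 10.6% of those above the dim limit. Above that limit lay all 12 chaperones, 15 of the 16 clock genes and 6 of the 11 retinoid and vitamin D targets. The Hic1 call held when WT replicate 1 was left out and ended for each other array (adjusted p reaching 0.112).

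Markers of other cells moved beside these results. Of 8 fibroblast and stromal markers, 3 fell (Col1a1 by 0.20, Pdgfrb by 0.28 and Thy1 by 0.30 on the log2 scale), Dcn rose by 0.30 and 4 did not pass, which is 50% called against 6.72% of all genes and 10.6% of those above the dim limit. Their summed signal, as log2 of the sum of linear intensities, was 13.29 to 13.37 in WT and 13.14 to 13.16 in GPS2KO. Stromal cells also express Nr2f2, Rora, Rarg and the retinoid enzymes, and the part of the stromal signal in the results was not tested. All 5 tested adipocyte markers, including Adipoq and Plin1, were dim with 0 calls in limma at either the adjusted or the unadjusted threshold (summed signal 7.11 to 7.17 in WT and 7.02 to 7.10 in GPS2KO), beside the changes of Pparg and Fabp4. Of all 7528 dim genes, 0.903% were called and 666 had an unadjusted limma p under 0.05.

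Of 8 macrophage markers, Mertk rose by 0.24 and Itgam by 0.19, 6 did not pass, and the summed signal was 15.34 to 15.38 in WT and 15.40 in all GPS2KO arrays. Among 8 dendritic cell markers, Itgax, which macrophages share, rose by 1.00 and 7 did not pass, and Flt3, Clec9a, Xcr1, Siglech and Cd209a were dim (summed signal 8.92 to 9.09 in WT and 9.54 to 9.75 in GPS2KO). Of 5 tested B cell markers Cd79b fell by 0.46, while Cd79a, Ms4a1 and Pax5 were dim. Ebf1, the fifth, differed by -0.20 with no overlap (limma adjusted p = 0.0542), and the summed signal of the list was 9.58 to 9.70 in WT and 9.39 to 9.44 in GPS2KO. Most of that sum was Ebf1, at a WT mean of 9.21. Itgax likewise made up most of the dendritic cell sum, at means of 8.16 in WT and 9.16 in GPS2KO. In the osteoclast list Ctsk rose by 0.47, Ocstamp fell by 0.68 and 5 of 7 did not pass. The neutrophil, mast cell, T and NK cell and erythroid lists, with 7, 7, 6 and 4 tested markers, had 0 calls in limma and 1 marker, in the neutrophil list, with an unadjusted p under 0.05. Called shares were 25% for the macrophage, 12.5% for the dendritic cell, 20% for the B cell and 28.6% for the osteoclast list. Of all genes 6.72% were called, and of those above the dim limit 10.6%. An unadjusted limma p under 0.05 was found for 20.8% of all genes and for 666 of the 7528 dim genes. The part of these markers in the receptor results was not tested.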

How the data were processed

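RNA of 3 WT and 3 GPS2KO macrophage cultures was hybridised to 1-colour Affymetrix arrays. The deposited values are log2 intensities made by the authors with RMA in oligo, per the submitters' processing notes, which give no versions; the table is therefore used as normalized and the array build is not given in the sources used here. RMA fits the arrays together, and dim probe sets are compressed towards background. Of 35556 probe sets, 21218 carried 1 gene symbol, 1881 several and 12457 were not listed in the platform annotation; 21185 of the 21218 matched RefSeq by gene number. The probe set with the highest mean stood for each of 18820 genes, 1386 of which had several. The number of arrays limits the precision.

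Groups were compared with limma 3.58.1 in R 4.3.3 (lmFit, eBayes, 2-sided, Benjamini-Hochberg over all tested genes, threshold 0.05), a procedure tested on simulated data. The planted log2 changes were 0.5, 1 and 2, of which 90%, 100% and 100% were called. Smaller changes, such as those of the called receptors, were not simulated. Per-array differences between paralogs were compared by an exact permutation test over 20 arrangements; the pairs Nr1h3 with Nr1h2 and Nr1d1 with Nr1d2 could not be formed. Every tested nuclear receptor is named, along with up to 4 called genes of each partner list by smallest p, Gps2, called markers and Csf1r, Adgre1 and Lyz2. The members and lists were chosen with earlier results of these data known. Alternatives were quantile normalization, median centring over tested genes, a variance trend, no dim genes, the mean of all probe sets of a gene, all probe sets in the adjustment, the replicate number as a block and each array left out. Centring over all probe sets was added after seeing the data. Promoter sequences are those of RefSeq on GRCm38.p6.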

Additional observations from a re-analysis of the deposited data

How the results depend on the processing

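Under the 14 alternatives no called result reversed, and 15 of the 41 nuclear receptors, none of them called there, changed sign in at least one. The nuclear receptors that fell numbered 3, then 1 after quantile normalization, 1 with all probe sets in the adjustment and 1 to 2 without each array in turn. Falls numbered 2 after median centring over tested genes, 4 without dim genes and 4 after centring over all probe sets. Rises numbered 2 with a variance trend, and 1 once dim genes were left out. Calls over all genes were 1265 (43.1% rises), 2174 with a variance trend, 1962 without dim genes, 618 with all probe sets and 749 to 842 without each array; rises made up 53.7% of calls after median centring over tested genes and 30.2% after centring over all probe sets, which took out GPS2KO minus WT offsets of -0.024 and 0.024, so that differences moved up and down by that much. With a variance trend, calls numbered 5 among corepressors, 2 among chaperones, 4 among clock genes and 6 among PPAR and LXR targets. Without dim genes there were 5 clock and 2 retinoid and vitamin D calls, as with centring over all probe sets (5 and 2). With all probe sets there was 1 coactivator call, 0 chaperone calls, 1 glucocorticoid target call and 0 retinoid and vitamin D calls. Leaving out each array gave 1 to 2 coactivator, 0 to 1 chaperone, 1 to 2 clock, 1 to 4 glucocorticoid target and 0 to 1 retinoid and vitamin D calls. Same-numbered WT and GPS2KO arrays had correlations of 0.003, 0.026 and -0.006 between their deviations from the group means. These values show no array-wide pairing by replicate number. They cannot tell whether such arrays shared a litter or a day, which the labels do not give. The replicate block gave 862 calls over all genes and 2 nuclear receptors that fell. It gave 1 coactivator call, 2 clock calls and 0 retinoid and vitamin D calls, with Pparg at an adjusted p of 0.0984 (limma). Testing fewer or more features changes the adjustment by construction, and leaving out an array leaves fewer samples; for the other settings the cause was not tested. Signal near background limits the 20 dim receptors and Nr0b2.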
